A study of Drosophila melanogaster with 10 samples.

Results

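Serpins are protease inhibitors with a shared fold, and 28 of the 17559 genes in the count table belong to the family by name. They were taken as every gene whose symbol starts with Spn followed by a digit, plus nec, the serpin known as necrotic. The libraries were made from polyadenylated RNA of whole adult Drosophila melanogaster males, 5 flies to a sample, between 5 and 10 days after eclosion. The 5 control samples had the genotype w[1118] / Y with 1 copy of the c564 driver. The 5 Mef2 knockdown samples had that same background and driver and also 1 copy of UAS-Mef2-IR[GD15549], a transgene for an RNA interference hairpin against Mef2. The driver makes GAL4 in the fat body, which stores nutrients and secretes hemolymph proteins, and in some other tissues. Control flies had no hairpin of any kind, so the groups differ in the presence of a transgene as well as in Mef2, a transcription factor known for muscle differentiation.

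A serpin presents an exposed loop that its target protease cuts, and the cut traps the protease in an inactive complex. In insect hemolymph, serpins hold in check the serine protease cascades that activate Toll signalling and the prophenoloxidases of melanization. Other serpins are secreted by the male accessory glands and passed to the female in seminal fluid. Most serpins are secreted, and the fat body, hemocytes, tracheae and reproductive tract are all present in a whole fly. Because each library pools all tissues of the fly, fewer cells of a type and less RNA per cell cannot be told apart in any of the values here.

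Levels are in CPM, counts divided by library size after trimmed-mean (TMM) scaling, and the libraries held 43823883 to 102851945 counts. Calls rest on the quasi-likelihood test of edgeR, with Benjamini-Hochberg adjustment over 13928 genes and a threshold of 0.05. Nothing in the labels says whether the samples of a group came from separate crosses, so p-values measure the spread between these samples. Mef2 itself stood at 93.6 ± 4.6 CPM in control and 79.3 ± 5.1 CPM in the knockdown (SD, n = 5 each), which is a log2 change of -0.24 (SE 0.06, adjusted p = 0.0149). Replicates 1 to 3 of both groups stood apart from replicates 4 and 5 across the transcriptome, and no label says what these sets are. In replicates 1 to 3 alone the fall of Mef2 was -0.34 (adjusted p = 0.000485), whereas in replicates 4 and 5 alone the value of -0.12 was not called (adjusted p = 0.28). The difference between the sets was itself called for Mef2 (adjusted p = 0.0425).

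Among the serpins, Spn88Eb, Spn42Da, Spn27A, nec and Spn77Ba rose in knockdown flies and Spn77Bc fell. Of the 28 members, 27 passed the filter on low counts and were tested. The 5 higher members are 18.5% of those tested, where 11.1% of all tested genes were called higher. The 1 lower member is 3.70%, where 5.51% of all tested genes were called lower. The knockdown libraries all lay above the control libraries in those same 5 higher members, against 11.8% of all tested genes, and no member had all knockdown libraries below the controls, against 6.86%. Without control replicate 1, 2 or 3 or knockdown replicate 5, 3 were higher, since Spn27A and Spn77Ba were not called. No serpin was called lower once control replicate 1, 3, 4 or 5 or knockdown replicate 2 or 3 was left out, and 6 were called lower once knockdown replicate 4 was left out. The fitted log2 change was above 0 in 13 members and below 0 in 14, with a median of -0.07 beside -0.00 over all tested genes. Except for Spn88Eb, every tested member had a log2 change between -0.54 and 0.58.

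**Figure D1:**
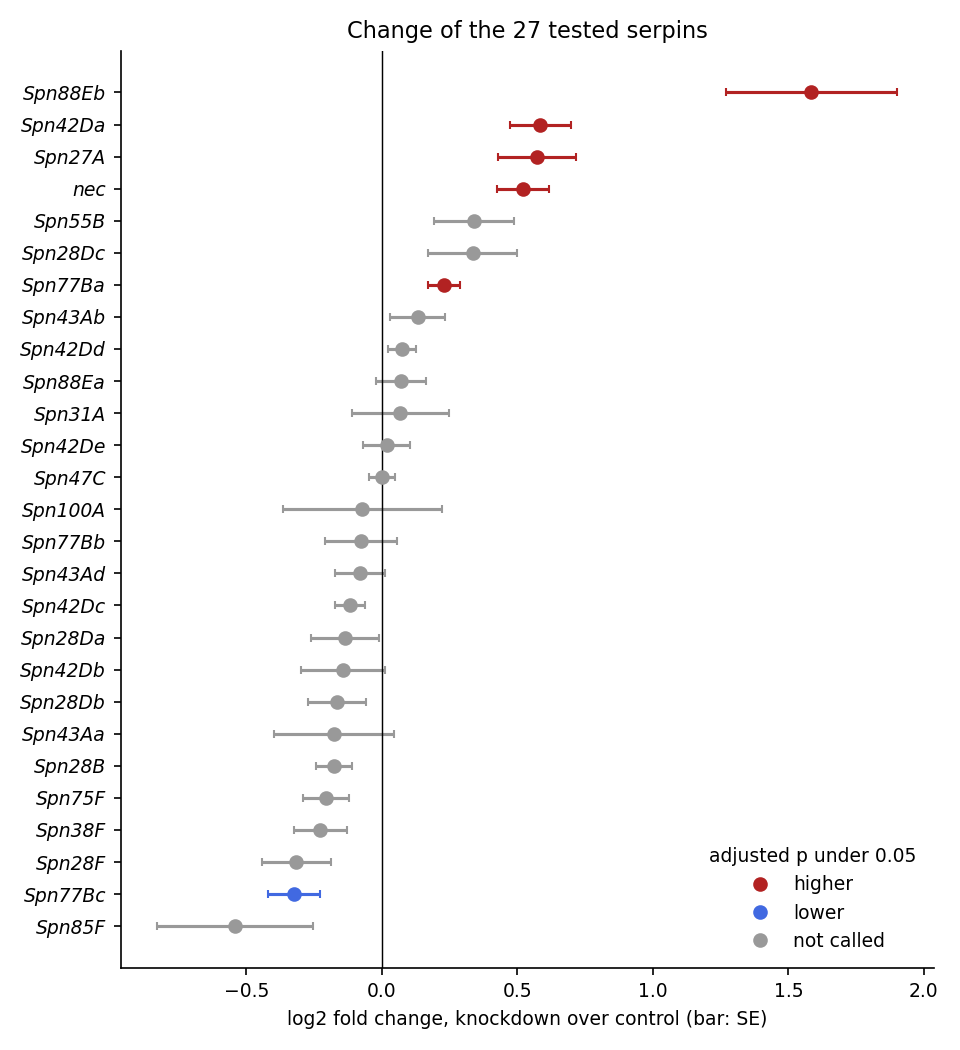
Log2 fold change of knockdown over control (x axis) for each of the 27 tested serpins (y axis, sorted), with bars for the SE and colours for the call at an adjusted p under 0.05. Spn88Eb stands alone at 1.58, Spn42Da, Spn27A and nec lie between 0.52 and 0.58, and Spn77Bc is the 1 member called lower.

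The serpins known as regulators of Toll and melanization were grouped from background knowledge after the values were seen, so their count is a description. They are nec, Spn27A, Spn77Ba, Spn28Dc, Spn88Ea and Spn42Dd. All 6 had a log2 change above 0, with a median of 0.28 and only 0.07 in Spn88Ea and in Spn42Dd. Of the 6, 3 were called higher and none lower, where 11.1% of all tested genes were called higher and 5.51% lower. At an unadjusted p under 0.05 those 3 were also the called ones, and limma voom and DESeq2 called no other regulator. The gene nec (FBgn0002930, chromosome 2R, 7156477 to 7158241, BDGP6) encodes the inhibitor that restrains activation of Toll through the protease Persephone. Its level was 152, 159, 156, 185 and 183 CPM in control replicates 1 to 5. In knockdown replicates 1 to 5 it was 265, 236, 198, 274 and 223 CPM. Every knockdown library lay above every control library, and knockdown replicate 3 came closest to the controls. The log2 change of nec was 0.52 (SE 0.10, adjusted p = 0.00428). It was called in each of the 10 fits that left out a library, with adjusted p up to 0.0192.

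Spn27A (FBgn0028990, chromosome 2L, 6671065 to 6673347) encodes the serpin that limits prophenoloxidase activation in hemolymph and that blocks the Toll-activating protease Easter in the embryo. Control replicates 1 to 5 held 54.0, 57.0, 54.5, 64.8 and 72.6 CPM. Knockdown replicates 1 to 5 held 75.3, 76.1, 74.3, 117 and 107 CPM. The groups did not overlap, but the gap between the highest control and the lowest knockdown library was narrow, and replicates 4 and 5 were the high libraries of both groups. Its log2 change was 0.57 (SE 0.14, adjusted p = 0.0204), with 0.45 in replicates 1 to 3 alone and 0.68 in replicates 4 and 5 alone. Leaving out control replicate 1, 2 or 3 or knockdown replicate 5 ended the call, at adjusted p of 0.0533 to 0.0624.

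Spn77Ba (FBgn0262057, chromosome 3L, 20317190 to 20320116) is known for restraining melanization in the tracheae, the air tubes of the fly. Its control libraries held 55.7, 55.8, 58.0, 60.6 and 60.8 CPM. Its knockdown libraries held 66.8, 64.0, 63.0, 74.5 and 73.0 CPM. The groups were separate with little spread in either, and the log2 change was small at 0.23 (SE 0.06, adjusted p = 0.022). Leaving out any of the libraries that ended the call of Spn27A, control replicate 1, 2 or 3 or knockdown replicate 5, also ended this call (adjusted p 0.0534 to 0.0687). Among 6 tracheal markers tested, serp and verm, chitin deacetylases of the tracheal lumen, were higher (log2 0.37 and 0.30, the second differing between the sets with 0.15 in replicates 1 to 3 and 0.50 in replicates 4 and 5) and none was lower, the same counts as at an unadjusted p under 0.05 and in limma voom and DESeq2. Over all tested genes 11.1% were called higher and 5.51% lower. The median of the 6 tracheal markers was 0.09, and their summed level ran from 70.1 to 80.7 CPM in control and from 79.3 to 90.8 CPM in knockdown. The part of tracheal RNA in the change of Spn77Ba was not tested.

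The other known regulators did not pass the test over all 10 libraries. Spn28Dc (FBgn0031973, chromosome 2L, 8004548 to 8007210), which limits phenoloxidase activity, held 25.1, 25.5, 22.8, 29.2 and 30.6 CPM in control. In knockdown it held 28.4, 27.1, 27.8, 50.7 and 34.1 CPM. Knockdown replicate 4 stood well above the rest, and the groups overlapped over all 10 libraries but not within either set of replicates. The log2 change was 0.34 (SE 0.17, adjusted p = 0.167), and 0.12 without knockdown replicate 4. Spn28Dc was called higher in replicates 1 to 3 alone (log2 0.18, adjusted p = 0.0244) and in the fit that took the set as a term (adjusted p = 0.0329). Spn88Ea (FBgn0028984, chromosome 3R, 15203069 to 15206447), a negative regulator of Toll also known from wing expansion, held 57.1, 59.3, 56.0, 71.7 and 69.6 CPM in control. Its knockdown values of 57.3, 62.6, 72.0, 62.7 and 74.9 CPM covered nearly the same range. The log2 change was 0.07 (SE 0.09, adjusted p = 0.603). Spn42Dd, reported to restrain Toll in the response to fungi, was at 85.5 ± 3.1 CPM in control libraries and 90.0 ± 5.8 CPM in knockdown libraries, and its log2 change was 0.07 (SE 0.05, adjusted p = 0.325).

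**Figure D2:**
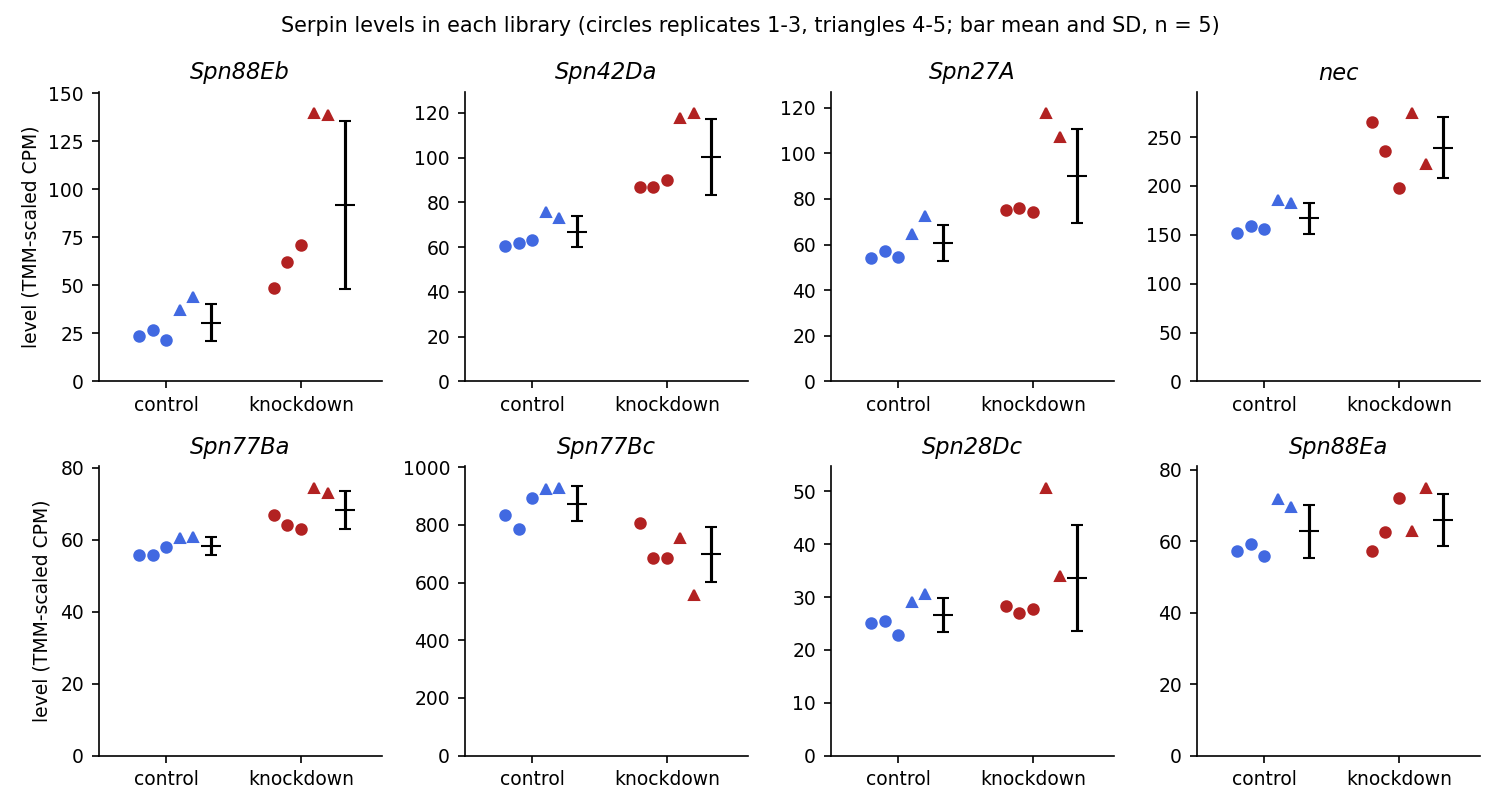
TMM-scaled CPM (y axes, from 0) of 8 serpins in each control and knockdown library, with circles for replicates 1 to 3, triangles for replicates 4 and 5, and bars for the mean and SD of 5 libraries. The groups are separate in Spn88Eb, Spn42Da, Spn27A, nec and Spn77Ba and overlap in Spn77Bc, Spn28Dc and Spn88Ea.

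Spn42Da (FBgn0265137, chromosome 2R, 6875906 to 6878927), known as an inhibitor of the proprotein convertase furin and for alternative exons that encode different reactive loops, rose. The control libraries held 60.6, 61.7, 63.2, 75.9 and 72.9 CPM. The knockdown libraries held 87.0, 86.6, 90.1, 118 and 119.7 CPM. All knockdown libraries exceeded all controls, and in each group replicates 4 and 5 were the highest. The log2 change was 0.58 (SE 0.11, adjusted p = 0.00518), and it was called in all 10 fits that left out a library (adjusted p up to 0.0209). The counts are summed over isoforms, so they do not say which reactive loop was made. An antisense gene, asRNA:CR44169, overlaps 281 bases of its exons on the other strand and held at most 1 count in any library.

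Spn88Eb (FBgn0038299, chromosome 3R, 15206703 to 15208762) had the largest change of the 27 tested members. Its control libraries held 23.9, 26.6, 21.7, 37.3 and 43.8 CPM. Its knockdown libraries held 48.6, 62.1, 70.8, 139 and 138 CPM. The lowest knockdown library lay just above the highest control, and within each set of replicates the groups were far apart. The log2 change was 1.58 (SE 0.31, adjusted p = 0.00649). It was 1.33 in replicates 1 to 3 alone (adjusted p = 6.06e-05) and 1.75 in replicates 4 and 5 alone (adjusted p = 0.000663), and it was called in all 10 fits that left out a library. With the replicate number as a block the adjusted p was 0.000124.

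Spn88Eb lies 255 bases from Spn88Ea, on the same strand, and the neighbours moved differently. Per kb of exon, the level of Spn88Eb was 0.411 to 0.669 times that of Spn88Ea in the control libraries. In knockdown it was 0.901 to 2.36 times that of Spn88Ea, above every control library. In 3 other clusters, too, the members next to a called serpin were not called. In the 43A cluster on chromosome 2R, the level of nec per kb was 0.479 to 0.593 times that of Spn43Ab in control and 0.572 to 1.01 times in knockdown. These ranges overlapped over all libraries, while within each set of replicates every knockdown ratio was above every control ratio. Spn43Ab was the most abundant of that cluster, at 259 ± 13 CPM in control and 284 ± 46 CPM in knockdown (log2 0.13, SE 0.10, adjusted p = 0.362). Spn43Aa and Spn43Ad were low, with log2 changes of -0.18 and -0.08, neither called. In the 42D cluster, Spn42Da was 0.312 to 0.418 times the level of Spn42Dd per kb in control and 0.440 to 0.625 times in knockdown. The changes of Spn42Db, Spn42Dc and Spn42De were -0.14, -0.12 and 0.02, none called. Exons of Spn42Dc and Spn42Dd share 63 bases on the same strand, so a part of their reads may be uncertain. In the 77B cluster, Spn77Ba was called higher, Spn77Bc lower and Spn77Bb, which lies between them, in neither direction. The level of Spn77Bc was 1.71 to 1.99 times that of Spn77Bb per kb in control and 1.29 to 1.84 times in knockdown. These ratios were chosen after the values were seen and were not tested.

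**Figure D3:**
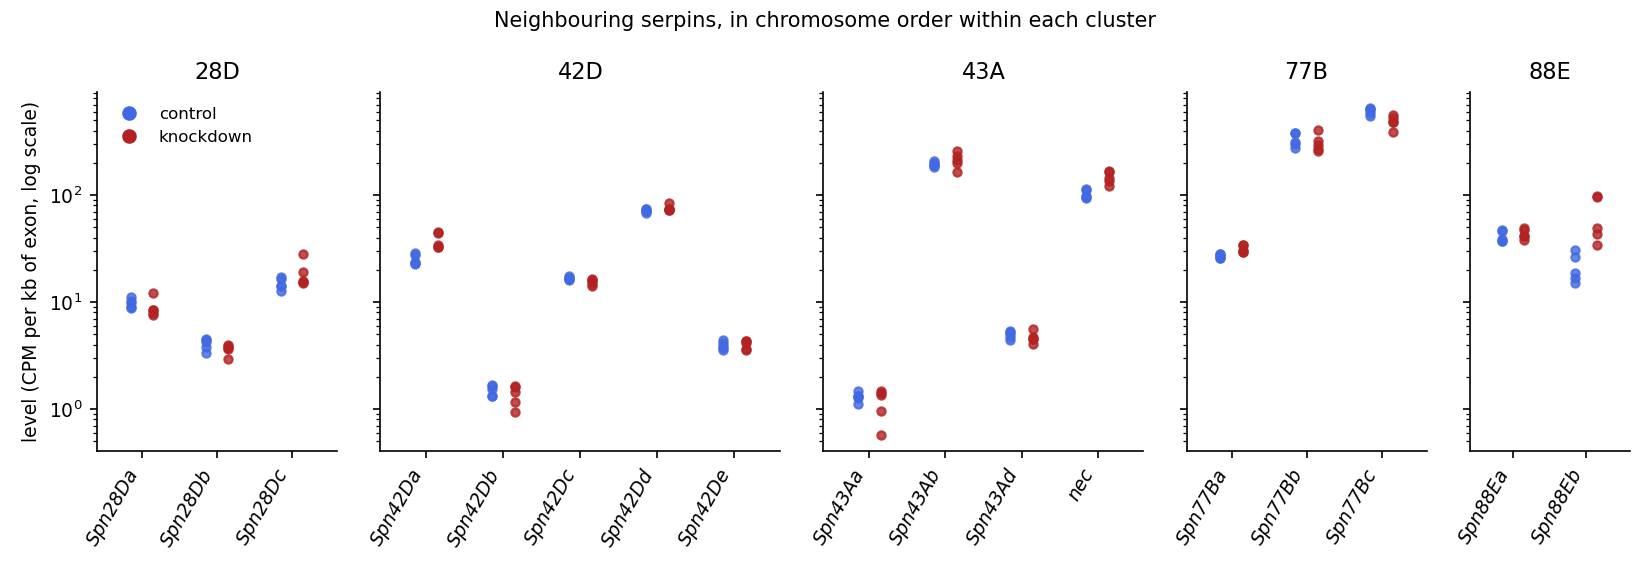
Level in CPM per kb of exon (y axis, log scale) of the serpins in 5 genomic clusters, in chromosome order, with 1 point per library. Blue and red points are separate in Spn42Da, nec, Spn77Ba and Spn88Eb, while those of the members beside them overlap. Within the 43A cluster control levels run from 1.31 CPM per kb for Spn43Aa to 195 CPM per kb for Spn43Ab.

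Serpins known from seminal fluid made up most of the serpin RNA. The group, put together from background knowledge after the values were seen, is Spn28F, Spn38F, Spn53F, Spn75F, Spn77Bb and Spn77Bc, and Spn53F had no count in any library. Acp76A, also called Spn76A, is outside the naming rule. Per kb of exon, the 4 highest serpins in control flies all came from this group, Spn77Bc at 607, Spn77Bb at 328, Spn38F at 269 and Spn28F at 236 CPM per kb. The group held 64.5% to 66.5% of all serpin CPM in the control libraries and 52.8% to 59.4% in the knockdown libraries, so the ranges were apart. The other serpins summed to 946 to 1091 CPM in control and 1150 to 1355 CPM in knockdown. Seminal serpins summed to 1764 to 2133 CPM in control and 1462 to 1985 CPM in knockdown, which overlapped through knockdown replicate 4.

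Spn77Bc (FBgn0036970, chromosome 3L, 20342634 to 20344319) was the 1 serpin called lower. It held 836, 787, 892, 925 and 929 CPM in control. It held 807, 686, 686, 755 and 556 CPM in knockdown. Knockdown replicate 1 lay within the control range and the others below it, and knockdown replicate 5 was the lowest. The log2 change was -0.32 (SE 0.10, adjusted p = 0.04). Leaving out control replicate 1, 3, 4 or 5 or knockdown replicate 2 or 3 ended the call, at adjusted p of 0.0606 to 0.0866. It was also lost in replicates 1 to 3 alone (log2 -0.21, adjusted p = 0.0642), while replicates 4 and 5 alone gave -0.53 (adjusted p = 0.0445).

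The rest of the seminal group had log2 changes below 0 and were not called. Spn28F held 290, 265, 259, 288 and 329 CPM in control. In knockdown it held 217, 191, 196, 311 and 236 CPM. Knockdown replicate 4 was within the control range and the other knockdown libraries were below it, giving a log2 change of -0.32 (SE 0.13, adjusted p = 0.0993). With the replicate number as a block Spn28F was called (adjusted p = 0.0333), and without knockdown replicate 4 its change was -0.46 (adjusted p = 0.00492). Spn38F showed a similar layout, with 306 to 349 CPM in control and 244 to 265 CPM in the knockdown libraries other than replicate 4. Knockdown replicate 4 stood at 357 CPM, above every control library. Its log2 change was -0.23 (SE 0.10, adjusted p = 0.127), and -0.36 (adjusted p = 0.00205) without knockdown replicate 4. For Spn75F the log2 change was -0.20 (SE 0.09, adjusted p = 0.11), and -0.31 (adjusted p = 0.00333) without that library. For Spn77Bb it was -0.08 (SE 0.13, adjusted p = 0.698). In replicates 1 to 3 alone Spn28F, Spn38F and Spn75F were called lower with log2 changes of -0.43, -0.33 and -0.24, and in replicates 4 and 5 alone none of them was.

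Genes of a seminal fluid list were also lower in part. Over all tested genes 5.51% were called lower and 11.1% higher. Of the 26 tested genes of this list, 7 were lower and none higher, with a median log2 change of -0.24 and a range of -0.52 to -0.05. At an unadjusted p under 0.05, 17 were lower and none higher, and limma voom and DESeq2 called 6 and 13 lower and none higher. With the replicate number as a block 12 were lower. The 7 were Sfp87B (log2 -0.48), Acp53C14c (-0.51), Sfp33A1 (-0.48), Acp33A (-0.36), Est-6 (-0.28), Acp36DE (-0.24) and lectin-46Ca (-0.18). Leaving out any control library or knockdown replicate 2 or 3 gave 2 to 4 lower genes, and leaving out knockdown replicate 4 gave 12. The list summed to 7281 to 7728 CPM in control and 5050 to 6644 CPM in knockdown, with knockdown replicate 5 lowest and replicate 4 highest of its group. The order of the 5 knockdown libraries was the same for the seminal serpins, where replicates 2 and 3 were nearly equal (1499.9 and 1499.3 CPM). The order of the control libraries was not the same. Acp95EF of that list had no count in any library. Of 13 tested testis markers none was called in either direction over all 10 libraries, with a median of -0.17. At an unadjusted p under 0.05, 3 were lower and none higher. In limma voom, in DESeq2 and with the replicate number as a block 1 was lower. The testis median was -0.05 in replicates 1 to 3 alone and -0.39 in replicates 4 and 5 alone. The change differed between the sets in 3 testis markers. These were sa (-0.08 in replicates 1 to 3 and -0.76 in replicates 4 and 5), betaTub85D (-0.11 and -0.42) and twe (-0.12 and -0.50). The part of gland or testis RNA in the values of the seminal serpins was not tested.

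**Figure D4:**
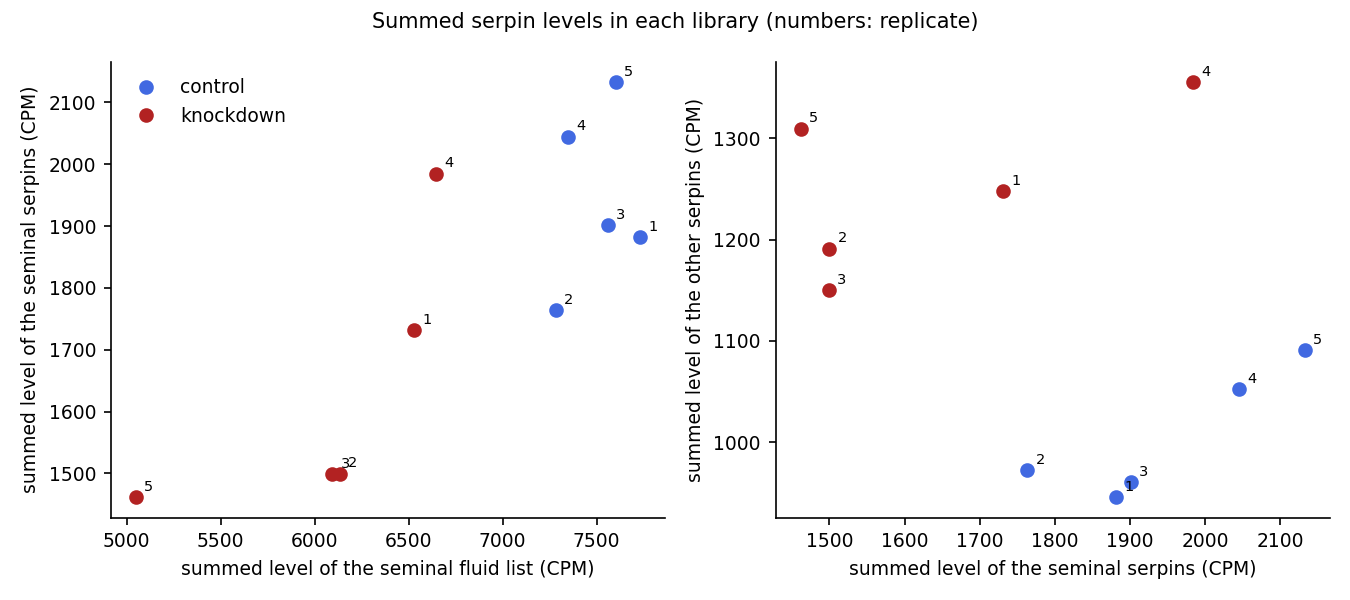
Left, the summed CPM of the seminal serpins (y axis) against the summed CPM of the seminal fluid list (x axis) and, right, the summed CPM of all other serpins (y axis) against that of the seminal serpins (x axis), with 1 point per library and its replicate number. Control libraries lie at 7281 CPM or more of the seminal list and at 1091 CPM or less of the other serpins, and knockdown libraries lie at 6644 CPM or less and at 1150 CPM or more.

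The remaining serpins have no role stated here, and Spn88Eb was the 1 called among the 15. Spn55B (FBgn0028983, chromosome 2R, 18126347 to 18128210) held 24.1, 24.5, 24.6, 35.5 and 27.9 CPM in control. It held 27.5, 30.3, 30.8, 39.8 and 44.6 CPM in knockdown. Within each set of replicates the knockdown libraries were higher, and over all 10 the groups overlapped, with a log2 change of 0.34 (SE 0.15, adjusted p = 0.123). It was called with the replicate number as a block (adjusted p = 0.023). Spn28B (FBgn0083141, chromosome 2L) stood at 26.3 ± 0.8 CPM in the controls and 23.3 ± 2.2 CPM in knockdown. Its log2 change of -0.18 (SE 0.07) was not called (adjusted p = 0.0812) except with upper-quartile scaling (-0.22, adjusted p = 0.0315), without knockdown replicate 4, with the set as a covariate or in replicates 1 to 3 alone. Spn31A separated the sets of replicates and not the groups. It held 17.7, 17.3, 17.1, 11.4 and 10.5 CPM in control and 18.1, 18.6, 16.6, 11.4 and 12.9 CPM in knockdown, with a log2 change of 0.07 (SE 0.18, adjusted p = 0.806). Spn47C had the smallest log2 change of the tested serpins (log2 0.00, SE 0.05, adjusted p = 0.996). It was at 56.2 ± 3.2 CPM in control and 56.2 ± 1.5 CPM in knockdown.

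The 28D cluster on chromosome 2L held Spn28Da and Spn28Db, 158 bases apart, at 12.4 ± 1.3 and 4.98 ± 0.60 CPM in control, with log2 changes of -0.14 and -0.16 that were not called. Spn28Da was called lower without knockdown replicate 4 (log2 -0.29, adjusted p = 0.0344). The least abundant tested members were Spn85F at 0.413 ± 0.142 CPM and Spn100A at 0.225 ± 0.064 CPM in control. Spn85F had counts of 7 to 31 in a library, and its log2 change of -0.54 (SE 0.29, adjusted p = 0.193) was the lowest of the 27 and not detectable as a change at this depth. For Spn100A the log2 change was -0.07 (SE 0.29, adjusted p = 0.878). For Spn53F (chromosome 2R, 17122898 to 17124237), which was listed at 0 in all 10 libraries, a floor of 3 counts equals 0.0294 to 0.0670 CPM. All 1279 bases of its exons overlap asRNA:CR45272 on the other strand, which held 50 to 131 counts. As the sources used here do not give the strand setting of the counting, the 0 cannot be read as a lack of Spn53F RNA.

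The sets of replicates gave different numbers of serpin calls. In replicates 1 to 3 alone, 8 serpins were called higher, against 15.4% of all genes tested there, and 5 lower, against 9.92%. In replicates 4 and 5 alone, 5 were higher, against 13.2%, and 1 lower, against 14.4%. Spn88Eb, Spn42Da, Spn27A, nec and Spn77Ba were called higher in both. A test of whether the change differed between the sets, added after seeing the data, called none of the 27 serpins in edgeR, where 18.8% of all tested genes were called. At an unadjusted p under 0.05 that test gave 5 serpins. Spn43Ab came near the threshold, with log2 changes of 0.29 in replicates 1 to 3 and -0.15 in replicates 4 and 5 (adjusted p of the difference = 0.0554), as did Spn27A (adjusted p = 0.0513).

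**Figure D5:**
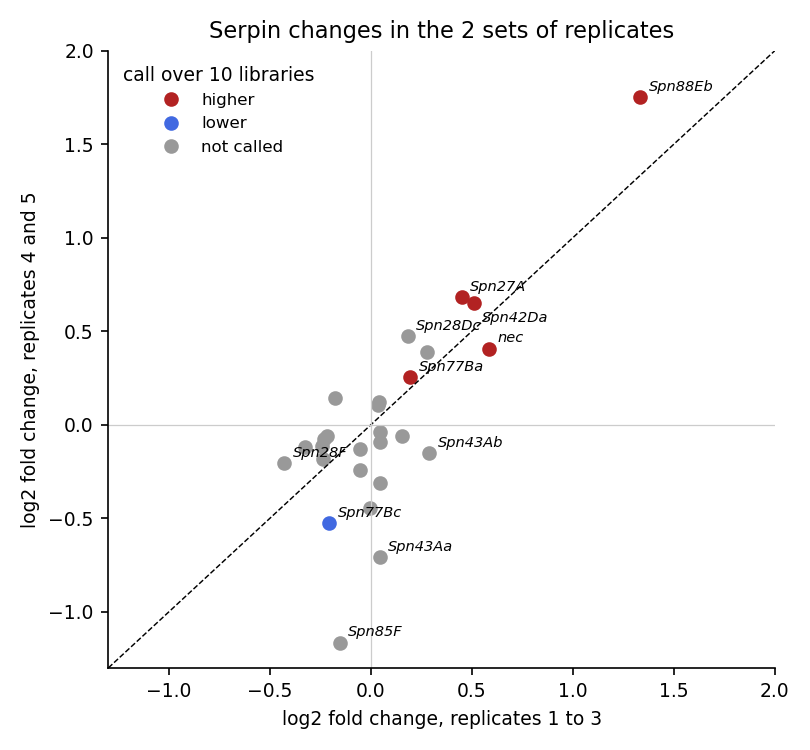
Log2 fold change of each tested serpin in replicates 4 and 5 alone (y axis) against that in replicates 1 to 3 alone (x axis), with the dashed line marking equal values and colours for the call over all 10 libraries. The 5 serpins called higher lie above 0 on both axes, and Spn77Bc lies at -0.21 and -0.53.

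Genes of the cascades whose proteases hemolymph serpins restrain were also higher in part. Of 20 tested genes of the Toll cascade, from recognition proteins to NF-kappaB factors, 8 were higher and 1 lower, with a median log2 change of 0.29. Over all tested genes 11.1% were called higher and 5.51% lower. The peptidoglycan recognition proteins PGRP-SD and PGRP-SA changed by 1.57 (SE 0.22, adjusted p = 0.000833) and 1.31 (SE 0.20, adjusted p = 0.00156). SPE, the protease that cleaves the Toll ligand, rose by 0.58 on the log2 scale (SE 0.09, adjusted p = 0.00134). The gene spz, which encodes the ligand, rose by 0.53 (SE 0.12, adjusted p = 0.0132). The recognition protein GNBP1 (0.65), the adaptor Myd88 (0.31), the kinase pll (0.40, with 0.27 in replicates 1 to 3 and 0.55 in replicates 4 and 5) and the factor Dif (0.29) were the other higher genes. The protease homolog sphinx2 was lower (-0.18, adjusted p = 0.0467), a call lost with the replicate number as a block (adjusted p = 0.0676) and on leaving out any control library or knockdown replicate 2, 3 or 5. For psh, which encodes the Persephone protease, the log2 change was 0.19 (SE 0.08, adjusted p = 0.0943). SPE was the only protease of this list called higher in edgeR over all 10 libraries. The proteases modSP, grass, psh, Hayan and spirit were not called in that fit. The receptor gene Tl had 0.51 (adjusted p = 0.0504), with all knockdown libraries above the controls. The change differed between the sets in 5 of the 20. Besides pll these were Tl (0.20 in replicates 1 to 3 and 0.84 in replicates 4 and 5), cact (-0.02 and 0.68), dl (0.06 and 0.33) and modSP (0.01 and -0.29). At an unadjusted p under 0.05, 15 were higher, in DESeq2 10 and with the replicate number as a block 11.

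Of 10 tested melanization genes 3 were higher and none lower, with a median of 0.34, where 11.1% of all tested genes were called higher and 5.51% lower. On this list the count of lower genes was also 0 at an unadjusted p under 0.05, in limma voom and in DESeq2. The proteases MP1 (log2 0.51, SE 0.08, adjusted p = 0.00215) and Sp7 (log2 0.51, SE 0.15, adjusted p = 0.0393) and the prophenoloxidase PPO3 (log2 0.54, SE 0.13, adjusted p = 0.0158) rose. PPO3 was low, at 0.901 ± 0.098 CPM in control and 1.32 ± 0.17 CPM in knockdown. PPO2, at 122.1 ± 9.8 CPM in control, was not called (log2 0.18, SE 0.26, adjusted p = 0.639). With the replicate number as a block 5 were higher, with Hayan, which stands on both cascade lists, and yellow-f added. Without control replicate 3 only MP1 was called. The change differed between the sets in PPO2, with -0.34 in replicates 1 to 3 and 0.66 in replicates 4 and 5 (adjusted p of the difference = 0.0116). It also differed in yellow-f2, with 0.15 and -0.64 (0.0013). The melanization list summed to 553 to 667 CPM in control and 567 to 826 CPM in knockdown, which overlapped. Against the same 11.1% and 5.51%, secreted peptides known as Toll targets had 6 of 14 tested members higher and 1 lower, with a median of 1.09. They summed to 1021 to 1719 CPM in control and 1639 to 4061 CPM in knockdown, which overlapped, and knockdown replicate 4 stood far above the 1639 to 2451 CPM of the other knockdown libraries.

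Markers of hemocytes, the blood cells of the fly, were higher in part. Over all tested genes 11.1% were called higher and 5.51% lower. Of 11 tested hemocyte markers 5 were higher, namely Hml, NimC1, eater, Sr-CI and crq, and none was lower, with a median of 0.31. None was lower at an unadjusted p under 0.05 or in limma voom or DESeq2 either. The change differed between the sets in 3 hemocyte markers. NimC1 rose in replicates 1 to 3 alone (log2 0.70) and had 0.07 in replicates 4 and 5 alone (adjusted p of the difference = 0.0327). The other markers went the opposite way. These were srp, with 0.17 in replicates 1 to 3 and 0.44 in replicates 4 and 5 (0.0373), and PPO2, with -0.34 and 0.66 (0.0116). PPO2 stands on this list and on that of melanization. The summed level of the markers ran from 540 to 617 CPM in control and from 597 to 840 CPM in knockdown. Of 7 tested fat body markers, Fbp2 and Mtp were higher and Lsd-1 lower. Limma voom gave 1 higher and 1 lower, and DESeq2 gave 3 higher and 1 lower. Fbp2 was low, at 0.299 ± 0.062 CPM in control and 2.30 ± 1.84 CPM in knockdown. Fbp1 of this list did not pass the filter on low counts and was not tested. The change differed between the sets in 5 of the 7, among them Fbp2, with 3.50 in replicates 1 to 3 and 0.46 in replicates 4 and 5 (adjusted p of the difference = 0.00561), and Lsd-1, with -0.52 and -1.21 (0.0132). The list summed to 2910 to 3646 CPM in control and 2913 to 3571 CPM in knockdown. The part of hemocyte or fat body RNA in the serpin values was not tested.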

How the data were processed

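RNA was sequenced from 10 pools of whole male flies, and the authors deposited raw gene counts, made with bcl2fastq, STAR 2.4.0j and featureCounts on BDGP6, per the submitters' processing notes. The sources used here do not name the annotation release, the strand setting or the handling of multiply mapped reads, so overlapping genes and close copies are uncertain. Symbols and coordinates came from Ensembl annotation 115 of BDGP6, which matched 17253 of 17559 identifiers and all 28 serpins. Of the marker and pathway lists, members with no identifier in the table, among them PPO1, Drs and btl, were not analysed here.

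Counts were tested with edgeR 4.0.16 in R 4.3.3 (TMM, filterByExpr at a minimum count of 10, group as the only term), after the steps were tested on simulated data. An SE is the absolute log2 change over the root of F. Floors cover counting error only. Alternatives used limma 3.58.1 voom, DESeq2 1.42.0, other scalings, no filter, fewer libraries, the replicate number as a block and the replicate set. Between any pair of libraries of a group the chi-square per degree of freedom was at least 6.86, so none was counted as a duplicate.

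Both groups carry replicate numbers 1 to 5. Same-numbered libraries deviated together, with correlations of 0.20 to 0.33, each over the bound of 0.1. Libraries with other numbers in the same set gave 0.14 to 0.39, and libraries of different sets gave -0.35 to -0.11. The correlations thus separate the sets and do not single out same-numbered libraries, and no label gives a pairing.

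The members, lists and tests were chosen with earlier results of these data known. Per-library values are given for every called serpin and for Spn27A, Spn28Dc, Spn77Ba, Spn88Ea, Spn42Da and nec. Other serpins were named by level, by position or after their values were seen.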

Additional observations from a re-analysis of the deposited data

Results flagged for a closer look

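In 4 of the 54 groups of 5 libraries, 1 library stood far from the other 4, where chance gives about 1 in 20 groups (2.7). Knockdown replicate 4 was the high library in 3 of the 4, at 15.5 CPM for Spn28Da, 357 CPM for Spn38F and 100.2 CPM for Spn42Dd. Control replicate 3 was low for Spn28B at 24.9 CPM.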

How the results depend on the processing

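Of 27 tested serpins, Spn88Eb, Spn42Da and nec kept their call and direction in all 19 alternatives. The same 5 higher and 1 lower serpins were called with limma voom, DESeq2, median-of-ratios scaling and no filter. With upper-quartile scaling 2 serpins were lower. In replicates 1 to 3 alone 8 were higher and 5 lower, and with the replicate set as a covariate 4 were lower. Leaving out 1 library gave 3 to 5 serpins higher and 0 to 6 lower. With the replicate number as a block, 6 serpins were called higher and 2 lower, adding Spn55B and Spn28F. The block gave 0 lower Toll cascade genes, 5 higher melanization genes and 12 lower seminal fluid genes, and 1 lower testis gene in place of none. It changed no other count of serpins, Toll cascade, melanization or seminal fluid genes by over 1.5 times. Over all genes the block gave 1819 higher and 1019 lower calls, against 1549 and 768 without it. With the set as a covariate the counts were 15 higher Toll cascade genes, 5 higher melanization genes and 15 lower seminal fluid genes, in a fit that called 2687 genes higher and 2084 lower in all. In replicates 1 to 3 alone they were 0 lower Toll cascade genes, 7 higher melanization genes and 18 lower seminal fluid genes. In replicates 4 and 5 alone 1 melanization gene and 4 seminal fluid genes were lower. DESeq2 called 13 seminal fluid genes lower, of 1306 genes lower in all. Leaving out 1 library gave 0 to 1 lower Toll cascade genes, 1 to 3 higher melanization genes and 2 to 12 lower seminal fluid genes. The cause of these shifts was not tested.

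Changes of sign were met in members not called over all 10 libraries. Spn47C had log2 changes of -0.0396 with upper-quartile scaling, -0.0044 with median-of-ratios scaling, -0.0179 with no filter, -0.0045 with DESeq2, -0.0917 in replicates 4 and 5 alone, and -0.0436 to 0.0318 without 1 library. Spn42De had -0.0216 with upper-quartile scaling, -0.0363 in replicates 4 and 5 alone, and -0.0277 to 0.0486 without 1 library. Without 1 library, Spn31A ranged from -0.0313 to 0.1424 and Spn100A from -0.2029 to 0.0751. In replicates 4 and 5 alone Spn100A had 0.1422, Spn88Ea -0.062 and Spn43Ab -0.1529, while Spn43Ab was called higher in replicates 1 to 3 alone (0.29, adjusted p = 0.012). In replicates 1 to 3 alone Spn43Aa had 0.0432 and Spn43Ad 0.0449. Low counts limit the precision of Spn85F and Spn100A.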
